A study of Drosophila melanogaster with 4 samples.

Results

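Elongator is a protein complex of several subunits, and *poly* is the *Drosophila* gene for Elp6 (CG9829). Elp3 is the catalytic subunit, with a radical SAM domain and an acetyltransferase domain, and Elp2 is a scaffold protein that carries WD40 repeats. Elp4, Elp5 and Elp6 share a RecA-like fold and form a ring that docks onto this core. In budding yeast the loss of any of these subunits abolishes a side chain on the wobble uridine of certain tRNAs, and the complex was first isolated with elongating RNA polymerase II.

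The subunits were chosen by name as the genes *Elp2*, *Elp3*, *Elp4*, *Elp5* and *Elp6* with a named probe on the array. All 5 had 1 probe each, among 11907 genes with a named probe. RNA of whole *poly* mutant larvae was compared with RNA of whole wild-type larvae on 4 2-colour arrays of long oligonucleotides, with a separate biological replicate on every array. The mutant is labelled by its stock, poly05137/TM6B, in which a P-element sits in the single intron of *poly*, and TM6B is a balancer chromosome. The sources used here do not say if homozygous larvae of this stock were picked for hybridisation. The wild-type is Canton S, and the labels name Canton S as the background of both genotypes. Larvae of both genotypes were collected early in the third instar, a day after second instar larvae had been moved to fresh yeast paste, with no treatment. Cy5 labelled the *poly* RNA of replicates 1 and 2, and Cy3 that of replicates 3 and 4. Each value is the log2 ratio of *poly* over wild-type within an array, so a value below 0 means less signal in *poly* mutants. A ratio carries no expression level, and neither the abundance of a subunit nor the labelled tissue can be read from it. In whole larvae, fewer cells of a type and less RNA per cell cannot be told apart.

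Across the 14569 probes, which are not independent replicates, Pearson's r was 0.62 between replicates 1 and 2 and 0.30 between replicates 3 and 4, the pairs of one dye orientation, and between −0.18 and 0.44 for the other pairs. Replicate 3 stood apart, with the widest spread (median absolute deviation 0.52, against 0.30 to 0.38) and the only negative correlation. Values without it are given beside several of the results that it changes.

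The mutated subunit stood apart from the others. *Elp6* fell to about 32.2% of its wild-type signal, while *Elp2*, *Elp3*, *Elp4* and *Elp5*, with means between 82.1% and 97.8% of wild-type, did not pass the test. The log2 ratio of *Elp6* was −1.49 on replicate 1, −1.57 on replicate 2, −1.69 on replicate 3 and −1.79 on replicate 4. All 4 arrays were low and they differed little from each other, with a mean of −1.63 ± 0.13 (SD, n = 4). Its 95% interval ran from −1.91 to −1.36, or 26.6% to 39.0% of the wild-type signal (limma, adjusted p = 0.0109 over all probes). Neither the place of this probe relative to the P-element nor what the remaining signal stands for is known here. The fall was present in both dye orientations, at −1.53 with *poly* in Cy5 and −1.74 with *poly* in Cy3. Within the single arrays *Elp6* lay between the 0.831 and the 4.78 percentile of all probes. The call depended on which array was left out. Without replicate 3 *Elp6* passed, at −1.62 (adjusted p = 0.019 from limma), and without replicate 1, 2 or 4 no gene passed, with *Elp6* between −1.68 and −1.58 and its adjusted p between 0.0972 and 0.117.

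Of the 5 subunits 1 was called lower and 0 were called higher. Over all named genes, 1.25% were called lower and 1.42% higher, and the single call among the subunits is the mutated gene itself. Of the 149 genes called lower, 43 had a larger fall than *Elp6*, and the median of the 149 was −1.27.

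**Figure D1:**
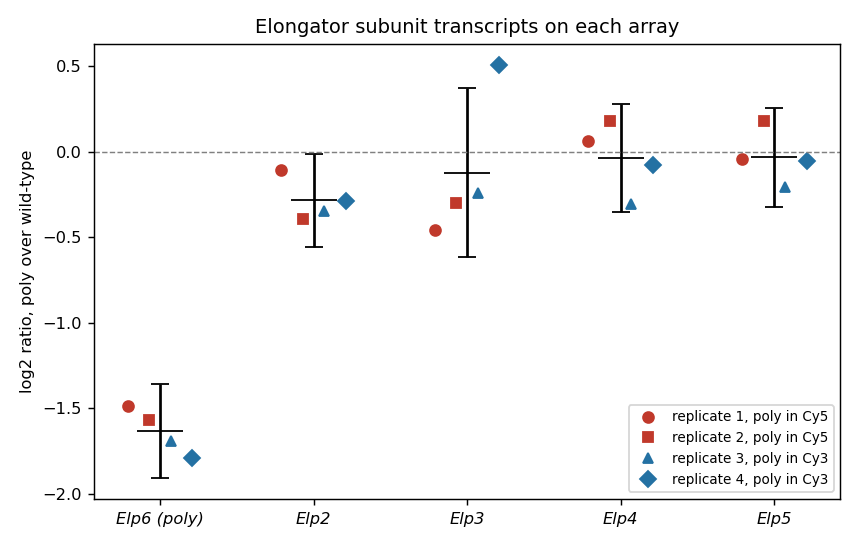
Log2 ratio of *poly* over wild-type (vertical axis) for the 5 Elongator subunits (horizontal axis). Points are single arrays, red with *poly* in Cy5 and blue with *poly* in Cy3, and black marks are the mean with its 95% interval from limma. *Elp6* lies between −1.79 and −1.49 on the 4 arrays, and no value of another subunit lies below −0.46.

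*Elp2* and *Elp3* belong to the part of the complex that holds the catalytic site. *Elp2* had log2 ratios of −0.11, −0.39, −0.35 and −0.29 on replicates 1 to 4. It was below 0 on all 4 arrays, as were 12.3% of all named genes, and its mean was −0.28 ± 0.13 (SD, n = 4). The unadjusted p of *Elp2* was 0.0431 and its adjusted p 0.29 from limma, so it did not pass, and 8.92% of all named genes were lower with an unadjusted p under 0.05. The 95% interval of *Elp2*, from −0.56 to −0.01, left room for a decrease to 68.0% of wild-type. *Elp3* had log2 ratios of −0.46, −0.30, −0.24 and 0.51. Replicates 1, 2 and 3 were low and replicate 4 was high, which gave *Elp3* the widest spread of the subunits (mean −0.12 ± 0.43, SD, n = 4, adjusted p = 0.851 from limma). With 1 array left out, the mean of *Elp3* ran from −0.33 without replicate 4 to −0.01 without replicate 1, and its adjusted p from limma from 0.389 to 0.996, so it did not pass in any of these fits. The mean of *Elp3* was −0.38 with *poly* in Cy5 and 0.14 with *poly* in Cy3. This difference between the dyes did not pass a test (adjusted p = 0.53 for the dye term in limma).

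*Elp4* and *Elp5* encode the partners of Elp6 in the RecA-like ring. *Elp4* had log2 ratios of 0.06, 0.18, −0.30 and −0.07, which averaged −0.03 ± 0.21 (SD, n = 4, adjusted p = 0.949 from limma). *Elp5* had log2 ratios of −0.04, 0.18, −0.21 and −0.05, a mean of −0.03 ± 0.16 (SD, n = 4, adjusted p = 0.948). The values of both genes lay on either side of 0, highest on replicate 2 and lowest on replicate 3. On each array they were close to one another, and the difference *Elp4* minus *Elp5* was −0.003 ± 0.08 (SD, n = 4), a smaller SD than that of either gene. Their 95% intervals were −0.35 to 0.28 for *Elp4* and −0.32 to 0.26 for *Elp5*. A change in *Elp4* below 78.4% or above 122% of wild-type lay outside its interval, and for *Elp5* these bounds were 80.1% and 119%. The signs of both means turned without replicate 3, at 0.06 for *Elp4* and 0.03 for *Elp5*, and they turned with array weights.

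These intervals give the range of change in the other subunits that the values leave possible. The smallest fall called on these arrays was −0.66. This is not a limit for every probe, since a probe whose arrays differ more, such as that of *Elp3*, needs a larger fall. The lower ends of the intervals of *Elp2*, *Elp3*, *Elp4* and *Elp5*, of which that of *Elp3* was the lowest at −0.61, all lay above the upper end of the interval of *Elp6* at −1.36. A decrease that stays within these intervals remains possible with 4 arrays. The intervals are not limits of detection, since that of *Elp2* lay below 0 and *Elp2* was not called.

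The mutated subunit was then compared with each of the others within the arrays, as a difference of log2 ratios and not of levels. *Elp6* minus *Elp2* was −1.35 ± 0.13 and *Elp6* minus *Elp3* was −1.51 ± 0.55 (SD, n = 4 arrays each). *Elp6* minus *Elp4* was −1.60 ± 0.17 and *Elp6* minus *Elp5* was −1.60 ± 0.16. The difference was below 0 on 4 of 4 arrays for every one of these pairs. The exact sign-flip permutation test, two-sided, gave p = 0.125 for each of the 4 pairs, which is the smallest p that 4 arrays allow, and it stays above the threshold with any adjustment. Against the mean of the other 4 subunits the difference was −1.35, −1.49, −1.41 and −1.81 over the replicates and averaged −1.52 ± 0.21 (SD, n = 4, exact p = 0.125). It was −1.42 with *poly* in Cy5 and −1.61 with *poly* in Cy3. On every array the lowest of the other subunits was higher than *Elp6*, by 1.03 on replicate 1 and by 1.50 on replicate 4.

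**Figure D2:**
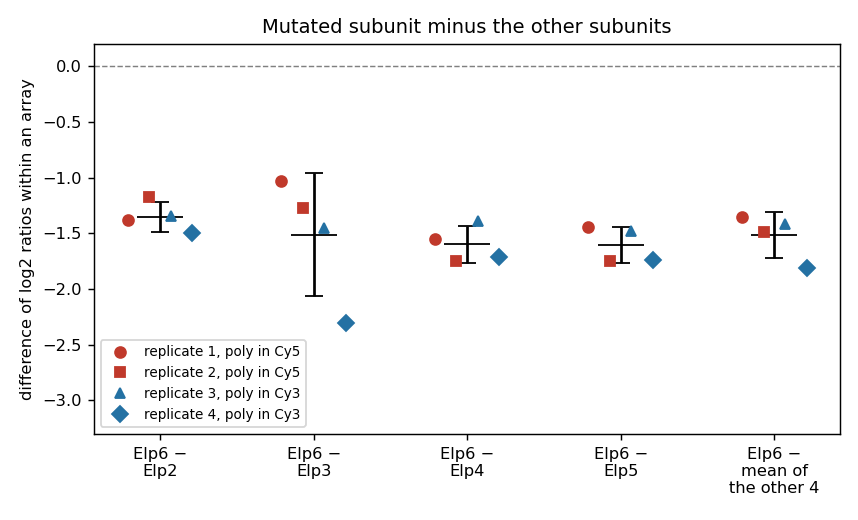
Difference of the log2 ratios within an array (vertical axis), *Elp6* minus each other subunit and minus the mean of the other 4 (horizontal axis). Points are single arrays, coloured by the dye of *poly*, and black marks are the mean ± SD. The highest point lies at −1.03, and the widest spread is that of *Elp6* minus *Elp3*, with −2.30 on replicate 4.

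Among the other subunits themselves the differences were small. The mean of the 4 was −0.14, −0.08, −0.27 and 0.02 on replicates 1 to 4. *Elp2* was the lowest, *Elp3* followed, and *Elp4* and *Elp5* were level with each other. *Elp2* was below *Elp4* (difference −0.25 ± 0.23) and below *Elp5* (−0.25 ± 0.23) on each array, with an exact p of 0.125 for both, the smallest that 4 arrays allow. The order of the neighbours *Elp2* and *Elp3* did not hold on every array (difference −0.16 ± 0.48, exact p = 0.625). The means of the 4 genes lay between the 14.4 and the 37.9 percentile of all probes, and the quartiles of all named genes were −0.14 and 0.21.

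**Figure D3:**
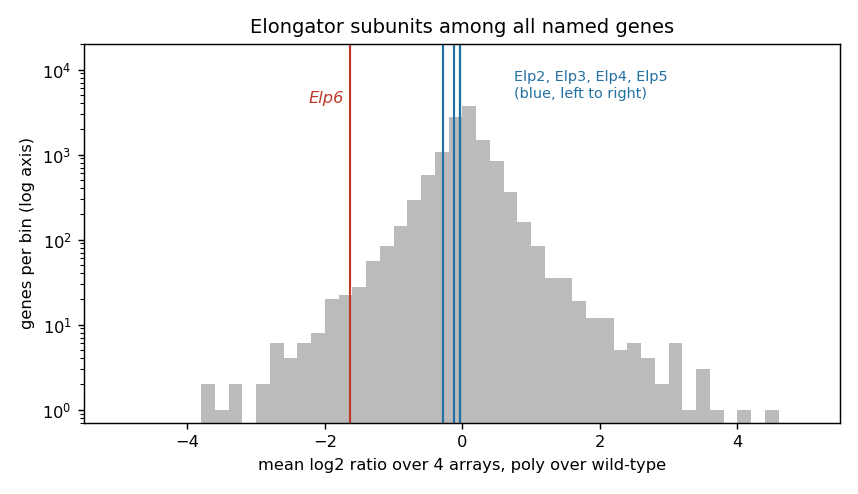
Number of named genes per bin (vertical log axis) by mean log2 ratio of *poly* over wild-type over the 4 arrays (horizontal axis). The red line is *Elp6* at −1.63, and the blue lines are *Elp2* at −0.28, *Elp3* at −0.12, and *Elp4* and *Elp5*, which overlap at −0.03, within the bulk of the genes.

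The genes whose ratios on the 4 arrays lay nearest to those of *Elp6* were not Elongator subunits. By Euclidean distance over the 4 arrays they were *Twdlalpha* (0.283), which encodes a Tweedle protein of the cuticle, CG32694 (0.347), CG3918 (0.371), *Hpd* (0.399), an enzyme of tyrosine breakdown, and CG8630 (0.478). *Twdlalpha* had −1.46, −1.67, −1.91 and −1.65 on replicates 1 to 4. Of the other subunits *Elp2* was the nearest, at a distance of 2.71 and rank 1406 of 11906 genes, followed by *Elp3* at rank 3500, *Elp4* at 3828 and *Elp5* at 3864. This distance depends mostly on the size of the mean, so these ranks largely restate the means given above.

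The pathway in which Elongator acts was examined next. On the wobble uridine, Elongator places the first part of a side chain, a tRNA methyltransferase completes it, and a separate sulphur relay thiolates the base. Of 10 genes listed for the accessory factor of Elongator, the methyltransferase and the sulphur relay, 8 were measured, and 0 were called lower or higher. By limma 1 of the 8, *Nfs1*, had an unadjusted p under 0.05. The median log2 ratio of the 8 was −0.18, against 0.04 for all named genes. It was 0.01 without replicate 2 and −0.25 without replicate 3.

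*Dph3*, the homologue of a yeast factor that donates electrons to Elp3, had log2 ratios of −0.09, −0.45, −0.06 and −0.39 on replicates 1 to 4 (mean −0.25 ± 0.20, adjusted p = 0.441 from limma). For the methyl transfer, CG17807, related to mammalian ALKBH8, had a mean of −0.07 ± 0.32, *Trmt112*, the activating partner of such enzymes, −0.17 ± 1.41, and *fid*, a related methyltransferase, 0.12 ± 0.08. *Trmt112* was low on replicate 2, at −1.81, and high on replicate 3, at 1.60, so its mean is poorly determined.

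In the sulphur relay, the ubiquitin-like carrier *Urm1* had a mean of −0.19 ± 0.14. The genes for tRNA thiolation, *Ctu1* and *Ctu2*, had −0.25 ± 0.18 and −0.20 ± 0.62 (SD, n = 4). *Urm1* and *Ctu1* were below 0 on 4 of 4 arrays without passing the test, with adjusted p = 0.516 and 0.412 from limma. *Nfs1*, the cysteine desulphurase that supplies the sulphur and also serves iron-sulphur cluster assembly, had log2 ratios of 0.65, 0.81, 1.75 and 1.46. It was above 0 on the 4 arrays, as were 15.2% of all named genes, and averaged 1.17 ± 0.52, which was not past the threshold (adjusted p = 0.0789). *Nfs1* passed as higher with a dye term (adjusted p = 0.0442 from limma), with arrays scaled to one spread (0.0463) and with array weights (0.0342). It did not pass with median centring (0.0743), a robust prior (0.0842), named probes only (0.0746) or probes averaged per gene (0.0736). With 1 array left out its adjusted p from limma ran from 0.0952 to 0.268.

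Of 15 measured enzymes of other tRNA modifications 0 were called, and their median was −0.20. The lowest were *RluA-1*, a pseudouridine synthase, with −0.78 ± 0.33 (adjusted p = 0.0875), and *wuho*, a partner subunit in the methylation of guanosine, with −0.72 ± 0.37 (adjusted p = 0.126). Both were below 0 on 4 of 4 arrays.

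Of 13 measured factors of RNA polymerase II elongation, which relate to the first described role of the complex, 0 were called. Their median was −0.08, and with 1 array left out it ran from −0.17 without replicate 2 to −0.02 without replicate 4. The genes with the smallest p were *Su(Tpl)*, which encodes the elongation factor ELL, with −0.43 ± 0.35 (adjusted p = 0.314), and *spt4* with −0.31 ± 0.27 (adjusted p = 0.392).

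Of 14 measured acetyltransferases and deacetylases of histones, tubulin and other proteins 0 were called, with a median of 0.08, which turned to −0.01 without replicate 3 and −0.03 without replicate 4. The histone acetyltransferases *mof*, at 0.23 ± 0.23 (adjusted p = 0.501), and *Tip60*, at 0.27 ± 0.34 (adjusted p = 0.536), had the smallest p. For tubulin, the acetyltransferase *Atat* had a mean of −0.13 ± 0.24 and the deacetylase *HDAC6* 0.35 ± 0.92. Over the 4 lists together 0 of 50 measured genes were called, where 2.67% of all named genes were called in either direction. By limma 4 of the 50 had an unadjusted p under 0.05, as had 17.0% of all named genes.

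**Figure D4:**
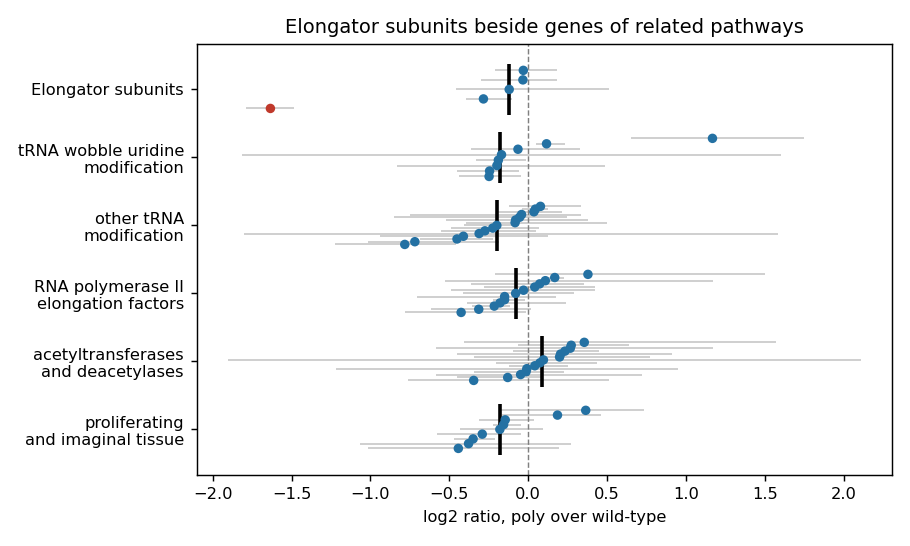
Log2 ratio of *poly* over wild-type (horizontal axis) for the Elongator subunits and for genes of related pathways and markers of proliferating tissue (vertical axis). Dots are means over 4 arrays, red for *Elp6*, grey lines run from the lowest to the highest array and black ticks are list medians. *Elp6* at −1.63 lies below the mean of every other gene shown, and *Nfs1* at 1.17 lies above them.

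Markers of larval tissues were set beside these values, since whole larvae mix tissues. Of 9 measured markers of proliferating and imaginal tissue 0 were called and 7 had a mean below 0, as had 43.0% of all named genes. Their array medians lay between −0.21 and −0.08, and their median was −0.18. In the 4 pathway lists above, which were not chosen as tissue markers, 31 of the 50 measured genes had a mean below 0. The medians of those lists were −0.18 (wobble uridine), −0.20 (other tRNA modifications), −0.08 (RNA polymerase II elongation) and 0.08 (acetyltransferases and deacetylases). The replication genes *Mcm5* (−0.35 ± 0.12, adjusted p = 0.193 from limma) and *Mcm3* (−0.29 ± 0.27, adjusted p = 0.424) were below 0 on 4 of 4 arrays. The only markers of this list with means above 0 were *nub* (0.36 ± 0.39) and *vg* (0.18 ± 0.28), genes of the wing disc. Of 5 markers of the nervous system 0 were called, with a median of −0.09, or 0.14 without replicate 2 and −0.003 without replicate 3. *nSyb*, of synaptic vesicles, had −0.42 ± 0.31 and *para*, a sodium channel, 0.22 ± 0.40. Of 4 muscle markers 0 were called, with a median of −0.60, and *TpnC73F*, a troponin C, had −1.01 ± 0.42 and *Mlc1*, a myosin light chain, −0.69 ± 0.46. *Mlc2*, another myosin light chain, had 0.08 ± 0.34. Of 5 haemocyte markers *NimC1*, a receptor for phagocytosis, was higher at 1.50 ± 0.52 (adjusted p = 0.0492 from limma), *eater* had −0.25 ± 0.14, and the median of the 5 was 0.01, with either sign when 1 array was left out (−0.11 to 0.12). *NimC1* did not pass with median centring (adjusted p = 0.0684), with arrays scaled to one spread (0.101), with a robust prior (0.0535) or with any 1 array left out (0.0567 to 0.245). The part of tissue make-up in the ratios of the subunits was not tested.

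Markers of larval age differed between arrays. The glue genes of the salivary gland *Sgs4* and *Sgs5*, which switch on late in larval life, had log2 ratios of 5.13 and 5.55 on replicate 3, while on the other arrays they lay between −0.21 and 0.27. The 3 measured glue genes had a median of 1.24 with all arrays and −0.05 without replicate 3, and 0 of them were called. The 3 fat body genes had array medians of −2.34, 1.53, 3.43 and 1.12 on replicates 1 to 4 and a median of 0.65, or −0.28 without replicate 3, with 0 called. Of these, *Lsp2* had a mean of 0.65 ± 2.93 and *Fbp2* one of 2.52 ± 1.78. Without replicate 3, where *Elp6* passed the test, *Elp2* was −0.26 and *Elp3* −0.08.

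*Dic1* (CG8790), a mitochondrial dicarboxylate carrier whose gene overlaps *poly*, had log2 ratios of −1.09, −1.02, −1.08 and −0.63 on replicates 1 to 4. Its mean of −0.95 ± 0.22 passed the test (adjusted p = 0.0371 from limma). Labelling by random priming kept no strand, and the place of the *Dic1* probe relative to the overlap is not known here. Whether signal of overlapping transcripts adds to this ratio was not tested. Of the 6 nearest measured genes, 3 on either side in chromosomal order, *Dic1* was the only one called. Among all named genes, 2.67% were called in either direction. *Dic1* did not pass with a dye term (adjusted p = 0.0639 from limma), with arrays scaled to one spread (0.0574) or with any 1 array left out (0.0605 to 0.237). *CheA87a* (0.13 ± 0.26) and *Lip3*, a lipase (0.90 ± 0.41, adjusted p = 0.09), followed on the side of *Dic1*. On the other side lay the peptidase genes CG32473 (0.03 ± 0.77), CG8774 (0.31 ± 0.24) and CG8773 (0.59 ± 0.53), none of which passed. These lay farther from *Elp6*, at places −8, −9 and −10 in gene order, against 1, 2 and 3 on the side of *Dic1*.

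**Figure D5:**
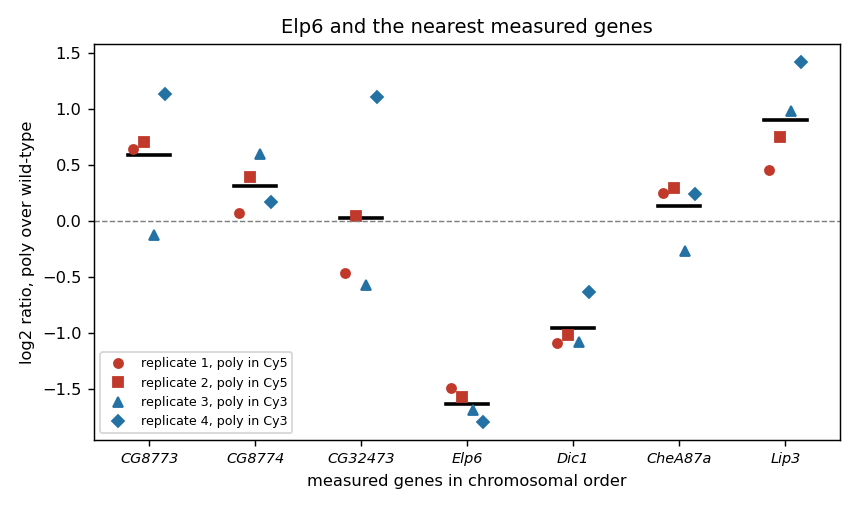
Log2 ratio of *poly* over wild-type (vertical axis) for *Elp6* and the 3 nearest measured genes on each side, in chromosomal order with no scale of distance (horizontal axis). Points are single arrays, coloured by the dye of *poly*, and black bars are means. *Elp6* (mean −1.63) and *Dic1* (mean −0.95) are below 0 on all 4 arrays, and the other neighbours have means between 0.03 and 0.90.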

How the data were processed

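Labelled cDNA of *poly* mutant and wild-type larvae was hybridised to long-oligonucleotide arrays (FL002). Dapple served for spot quantitation and vsn for normalization, and the values the authors deposited are log2 ratios, 1 column per array. Background correction is not stated. Only 4 arrays were made, which limits the precision. The direction was taken as *poly* over wild-type throughout, since the 5 measured genes that the study names as downregulated were below 0 in both dye orientations of the columns as they stand.

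Of 14569 probes, 12657 had 1 symbol in the platform annotation, 96 several and 1 none, and 1815 stay unnamed here. Symbols were updated with the RefSeq gene table of GCF_000001215.4, which gave names and gene order alone, by gene identifier for 12011 probes and accession for 107, and 539 kept the old symbol. Where probes shared a gene, that with the smallest p stood for it.

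Each probe was tested against 0 with limma 3.58.1 in R 4.3.3 (two-sided, Benjamini–Hochberg over all probes, threshold 0.05), and the fit was tested on simulated ratios. Differences between subunits were tested with an exact sign-flip permutation test over the arrays. The members, the 10 gene lists and the rule for named genes were chosen with earlier results of these data known. The rule names the subunits, all measured genes of the wobble uridine list, the called genes and the 2 with the smallest p of each other list, the 5 genes nearest to *Elp6*, and its 3 measured neighbours on each side. *Atat*, *HDAC6*, *nub*, *vg* and *Mlc2* were named after their values were seen. Alternatives were a dye term, median centring, one spread for all arrays, array weights, a robust prior, named probes only, probes averaged per gene and each replicate left out. Tables and plots were made in Python 3.11.15 (pandas 2.3.3, numpy 2.4.6, matplotlib 3.10.9).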

Additional observations from a re-analysis of the deposited data

Results flagged for a closer look

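Of 50 genes named here, 5 had an array far from the other 3 by Dixon's test, which chance alone gives in about 1 of 20 groups of 4. None of the 5 Elongator subunits was among them. *Dic1* was at −0.63 on replicate 4, against −1.09 to −1.02 on the other arrays. *CheA87a* was at −0.26 on replicate 3, against 0.24 to 0.30. The glue genes *Sgs4* and *Sgs5* were at 5.13 and 5.55 on replicate 3, and *Fbp2*, of the fat body, was at −0.13 on replicate 1, against 3.19 to 3.62 on the others.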

How the results depend on the processing

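The fall of *Elp6* passed with every alternative fit to the 4 arrays, with means between −1.70 and −1.57 and adjusted p between 0.00266 and 0.0313. With 1 array left out its mean ran from −1.68 to −1.58, and it passed only without replicate 3. *Elp2* and *Elp3* kept their sign and did not pass in any fit. *Elp4* and *Elp5* turned sign with array weights, to 0.0779 and 0.0452, and with 1 array left out they ran from −0.105 to 0.0553 and from −0.102 to 0.0272. *Elp6* minus the mean of the other subunits ran from −1.57 to −1.42 with 1 array left out, and no difference between *Elp6* and a subunit changed sign. A dye term left 65 genes lower and 96 higher, and array weights gave 639 lower and 622 higher, against 149 and 169. With arrays scaled to one spread 134 were lower and 83 higher. The cause of these shifts was not tested. With 1 array left out they ran from 0 to 151 and from 0 to 216, and 1529, 1478 and 1906 probes had an unadjusted p under 0.05 in the fits without replicate 1, 2 or 4, where none passed. Each ratio sets both genotypes against each other within 1 array, so the test of the ratios against 0 was already paired. No further pairing was modelled, as there is 1 group of ratios.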

Other observations

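Around the other 4 subunits, 24 measured neighbouring genes, 3 on each side of each, were looked up in the same way, and 0 were lower and 1 was higher. The shares called among all named genes were 1.25% lower and 1.42% higher. CG12934, next to *Elp2*, had log2 ratios of 0.74, 1.17, 0.99 and 0.64 on replicates 1 to 4, a mean of 0.89 ± 0.24 (adjusted p = 0.0486 from limma), and it did not pass with a dye term (0.0822), median centring (0.0574), one spread for all arrays (0.0688), a robust prior (0.0522) or any 1 array left out (0.0741 to 0.237). Near *Elp4* but not adjacent to it, *cl* had a mean of 0.77 ± 0.29 that did not pass (adjusted p = 0.0781 from limma). Next to *Elp3*, MFS18 had a mean of −0.43 ± 0.13 (adjusted p = 0.135). These neighbours were chosen after the values were seen.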
